A study of Mus musculus with 7 samples.

Results

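The fibrous collagens of bone, ligament, tendon and synovium were examined in knee tissue of wild-type and Trpc1-/- mice through 9 genes. Col1a1 and Col1a2 encode the chains of type I collagen, Col3a1 the chain of type III collagen, and Col5a1, Col5a2 and Col5a3 the chains of type V collagen. Col12a1 and Col14a1 encode the chains of types XII and XIV, and Col24a1 the chain of type XXIV. The genes were chosen by symbol, as collagen genes of bone and fibrous tissue, and each symbol matched 1 row of the deposited gene table, 9 of 55401 rows in all. All 9 were among the 16429 genes that passed the filter on low counts (CPM, the count scaled to library size, above 1 in at least 2 samples).

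Type I collagen is the main structural protein of bone, tendon and ligament, where 2 gene products wind into a triple helix that packs into fibrils. Types III and V join these fibrils, and type V takes part in starting them and in limiting their width. Types XII and XIV do not form fibrils themselves but lie along the fibril surface, and type XXIV is a fibrillar collagen known from developing bone. Hyaline cartilage is built on type II collagen instead, so in knee tissue these genes mostly report on bone and on the fibrous tissues around the joint.

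Bulk RNA-Seq was done on 7 samples of male C57BL/6J mice that were 10 weeks old at surgery, 4 WT and 3 Trpc1-/- by their labels, whereas the study's methods give these numbers the other way round. All mice had undergone destabilization of the medial meniscus (DMM), an operation on the right knee that leads to osteoarthritis, and tissue was taken 2 weeks later. Each sample pooled tissue from 2 to 3 mice, and no unoperated knee was among the 7 samples, so the values compare genotypes after DMM and not DMM with its absence. The Trpc1-/- mice carry the Trpc1tm1Lbi allele in all cells, which lacks exon 8 and leaves a transcript with an early stop, and TRPC1 is a subunit of calcium-permeable cation channels.

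The targeted gene was examined first. Trpc1 was at 4.83, 4.55, 4.77 and 4.33 CPM in WT replicates 1 to 4 and at 3.35, 3.79 and 3.04 CPM in Trpc1-/- replicates 1 to 3. Every Trpc1-/- sample lay below every WT sample, and the gene total, which covers all exons, is no check of the loss of exon 8 (edgeR's quasi-likelihood test, logFC -0.44, SE 0.13, adjusted p = 0.407).

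Total counts per sample lay between 52142451 and 118254070, with the lowest in WT replicate 1. The sample labels call the tissue articular cartilage, and the study's methods add subchondral bone. The cartilage collagen Col2a1 was abundant, with a mean of 2977 ± 248 CPM over the 4 WT samples (SD) and 2138 ± 985 CPM over the 3 Trpc1-/- samples. Beside it stood markers of red blood cells, such as the globin Hbb-bs at 9916 ± 2689 CPM in WT and 16932 ± 3090 CPM in Trpc1-/- samples, and of neutrophils, such as S100a9 at 4331 ± 1910 and 5314 ± 853 CPM. Markers of bone were present too, with Spp1 at 932 ± 152 CPM and Ibsp at 524 ± 131 CPM in WT. WT replicate 1 stood apart from the other WT samples in several marker lists. Its neutrophil score (the mean log2 CPM of the list) was 8.20 against 9.47 to 9.74 and its skeletal muscle score 6.88 against 2.58 to 4.55. Its chondrocyte score was 6.77 against 7.17 to 7.24, and its osteoblast and osteocyte score 6.07 against 6.33 to 6.41. Without this sample, edgeR called 49 genes and DESeq2 890 over the whole table. The collagen, ratio, correlation and list results are also given without it.

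The 9 genes differ in how much of their product is collagen helix, which is coded as repeats of Gly-X-Y, a glycine codon followed by 2 others. In the GENCODE M21 transcripts of mouse assembly GRCm38, the longest unbroken run of such triplets was 338 in Col1a1, 339 in Col1a2, 344 in Col3a1, 338 in Col5a1, 339 in Col5a2 and 337 in Col5a3. The first 36 bases of the longest run are shown for each gene, read 5′ to 3′ on the coding strand, because the regular spacing of glycine is what these genes share, and capitals mark the glycine codon that opens each triplet (a glycine codon at another place stays in lower case).
Col1a1, codons 168 to 179: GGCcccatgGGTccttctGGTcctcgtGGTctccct
Col1a2, codons 97 to 108: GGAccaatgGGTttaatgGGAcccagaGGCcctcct
Col3a1, codons 164 to 175: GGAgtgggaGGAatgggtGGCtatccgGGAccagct
Col5a1, codons 559 to 570: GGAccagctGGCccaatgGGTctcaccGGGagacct
Col5a2, codons 211 to 222: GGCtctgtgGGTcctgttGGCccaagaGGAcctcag
Col5a3, codons 478 to 489: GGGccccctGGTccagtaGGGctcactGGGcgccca
Col12a1, codons 2805 to 2816: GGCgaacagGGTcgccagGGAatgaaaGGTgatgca
Col14a1, codons 1517 to 1528: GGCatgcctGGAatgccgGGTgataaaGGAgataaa
Col24a1, codons 568 to 579: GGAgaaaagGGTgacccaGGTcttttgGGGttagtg

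Col12a1 and Col14a1 stood apart in sequence. Their longest runs held 32 triplets each, and all runs of 5 or more together covered 7.63% of the codons of Col12a1 and 13% of those of Col14a1, against 73.3% in Col1a1. In both the runs lie at the end of the coding sequence, behind a long stretch without them. In Col24a1 the run was broken once, after 216 triplets, by 4 codons at positions 1216 to 1219, after which a run of 93 followed. The break is shown with 4 triplets on each side, again with the opening glycine codon of each triplet in capitals.
Col24a1, codons 1204 to 1231: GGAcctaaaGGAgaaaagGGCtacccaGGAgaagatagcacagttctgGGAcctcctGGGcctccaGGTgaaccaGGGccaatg

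**Figure D1:**
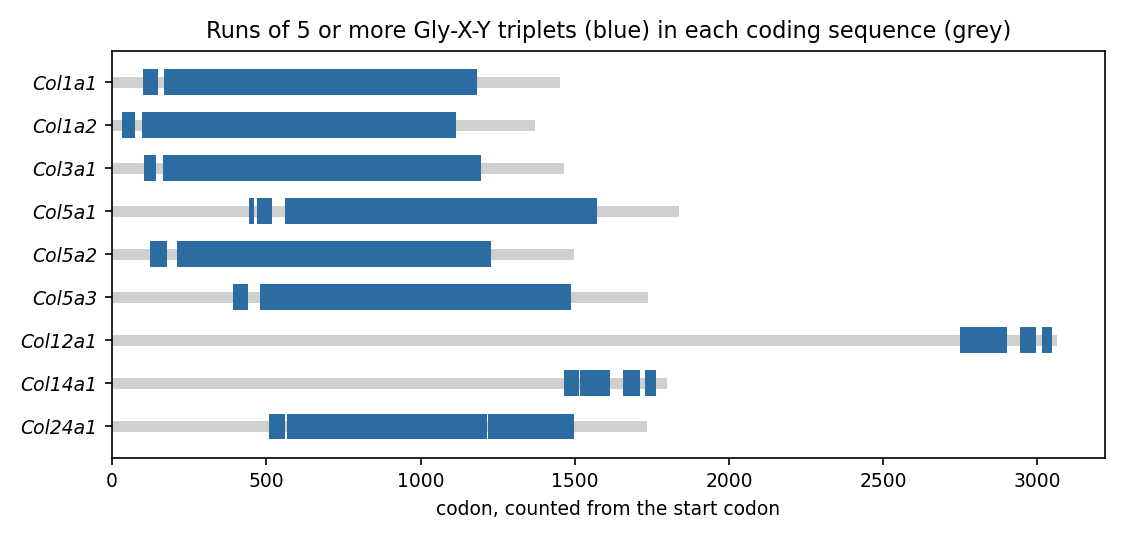
Position of the Gly-X-Y runs (blue, runs of 5 or more triplets) along the coding sequence (grey) of each of the 9 genes, with the codon number from the start codon on the x axis. The 6 genes of types I, III and V hold 1 long run of 337 to 344 triplets, Col24a1 is broken once, and Col12a1 and Col14a1 hold short runs near the end.

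In Trpc1-/- samples the mean level of each of the 9 collagen genes was lower than in WT, with log2 fold changes (logFC, Trpc1-/- against WT) from -0.57 for Col24a1 to -0.14 for Col14a1 and a median of -0.38. None of the 9 passed edgeR's quasi-likelihood test after adjustment over all tested genes. The share of all tested genes called by that test was 0%, that is 0 of 16429 genes, with 1643 at an unadjusted p under 0.05. DESeq2 called 294 genes, 1.79% of those tested, and limma-voom called 1, and neither called any of the 9. A lower Trpc1-/- mean was found in 51.9% of all tested genes, whose median logFC was -0.0088. Groups did not overlap, with every Trpc1-/- sample lower, in 0 of the 9 collagen genes and in 6.42% of all tested genes. An unadjusted p under 0.05 with a lower level was found for 1 of the 9, Col24a1, and for 5.49% of all tested genes. In bulk tissue, fewer cells of a type and less RNA per cell cannot be told apart.

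Type I collagen was the most abundant of the set. Col1a1 (ENSMUSG00000001506, chr11:94936224-94953042, plus strand, GRCm38) was at 12768, 8405, 7082 and 6331 CPM in WT replicates 1 to 4 and at 4873, 8876 and 5154 CPM in Trpc1-/- replicates 1 to 3. WT replicate 1 was the highest of all, Trpc1-/- replicate 2 lay above 3 of the 4 WT samples, and the other Trpc1-/- samples lay below all WT samples. The logFC was -0.46 (SE 0.32, edgeR adjusted p = 0.618), with a 95% confidence interval of -1.20 to 0.28. Col1a2 (chr6:4504814-4541544, plus strand) encodes the partner chain and was at 10287, 9898, 9305 and 7039 CPM in WT and at 6289, 9587 and 5667 CPM in Trpc1-/- samples. As for Col1a1, Trpc1-/- replicate 2 lay among the WT samples and the other Trpc1-/- samples below them all, but WT replicate 1 was only slightly above WT replicate 2. The logFC was -0.35 (SE 0.24, edgeR adjusted p = 0.609), with an interval of -0.90 to 0.20.

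Type III collagen, typical of pliable tissue and of repair, had another order of samples. Col3a1 (chr1:45311538-45349706, plus strand) was at 5180, 4558, 4125 and 2287 CPM in WT replicates 1 to 4 and at 3624, 3190 and 2683 CPM in Trpc1-/- replicates 1 to 3. The lowest of all 7 samples was a WT sample, replicate 4, and the 3 Trpc1-/- samples lay between it and the other WT samples. The logFC was -0.35 (SE 0.28, edgeR adjusted p = 0.653), with an interval of -0.99 to 0.29.

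The 3 chains of type V collagen differed widely in level but had similar differences between genotypes. Col5a1 (chr2:27886425-28039514, plus strand), part of nearly all type V trimers, was at 659, 475, 412 and 298 CPM in WT and at 372, 402 and 284 CPM in Trpc1-/- samples (logFC -0.39, SE 0.26, edgeR adjusted p = 0.606). Here WT replicate 4 and Trpc1-/- replicate 3 were the lowest samples. Col5a2 (chr1:45374321-45503282, minus strand) was at 1023, 1077, 1033 and 698 CPM in WT and at 778, 894 and 603 CPM in Trpc1-/- samples (logFC -0.34, SE 0.20, edgeR adjusted p = 0.565). For this gene WT replicates 1 to 3 stood close together above all Trpc1-/- samples, and WT replicate 4 alone made the groups overlap. Col5a2 lies 24.6 kb from Col3a1 on the opposite strand, and their order of samples differed, with Trpc1-/- replicate 2 the highest of its group for Col5a2 and replicate 1 for Col3a1.

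Col5a3 (chr9:20770050-20815067, minus strand), which codes for the rarest type V chain, was at 84.5, 60.1, 54.4 and 37.4 CPM in WT and at 42.9, 45.3 and 35.2 CPM in Trpc1-/- samples. Again WT replicate 4 was the sample that overlapped with the Trpc1-/- group. The logFC was -0.52 (SE 0.25, edgeR adjusted p = 0.520), with an interval of -1.10 to 0.057. Col5a3 and Col12a1 are on the chromosome of Trpc1, chromosome 9.

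The fibril-surface collagens differed from each other. Col12a1 (chr9:79598991-79718831, minus strand) was at 556, 455, 416 and 358 CPM in WT and at 323, 453 and 252 CPM in Trpc1-/- samples (logFC -0.38, SE 0.22, edgeR adjusted p = 0.571). Its order followed type I collagen, with Trpc1-/- replicate 2 among the WT samples and the other Trpc1-/- samples below all of them. Col14a1 (chr15:55307750-55520803, plus strand) was at 213, 168, 153 and 97.6 CPM in WT and at 170, 130 and 132 CPM in Trpc1-/- samples. Its order followed Col3a1, with WT replicate 4 the lowest of all and the Trpc1-/- samples among the WT samples. It had the smallest difference of the 9 (logFC -0.14, SE 0.24, edgeR adjusted p = 0.848), with an interval of -0.70 to 0.43.

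Col24a1 (chr3:145292472-145552011, plus strand), the bone-associated fibrillar collagen, had the lowest level per length and the most negative logFC. It was at 68.2, 49.2, 44.1 and 37.4 CPM in WT replicates 1 to 4 and at 30.2, 43.9 and 26.4 CPM in Trpc1-/- replicates 1 to 3. Trpc1-/- replicate 2 lay between WT replicates 3 and 4, and the other Trpc1-/- samples lay below all WT samples. The logFC was -0.57 (SE 0.24, edgeR's quasi-likelihood test, unadjusted p = 0.0469, adjusted p = 0.498), with an interval of -1.13 to -0.0100.

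**Figure D2:**
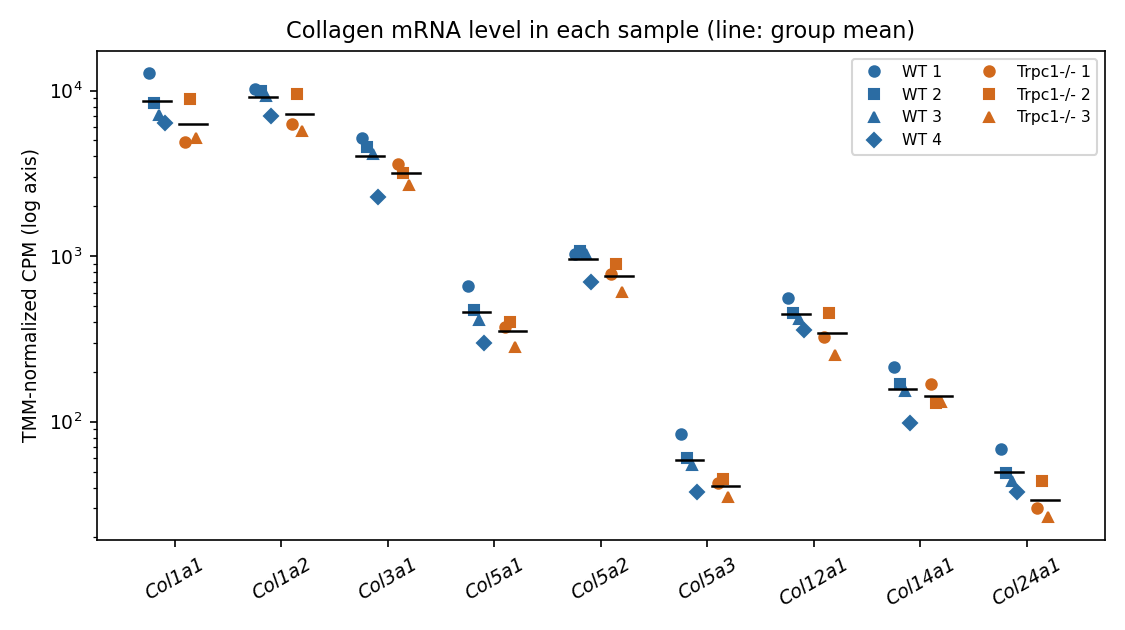
TMM-normalized CPM (log axis) of the 9 collagen genes in each of 4 WT (blue) and 3 Trpc1-/- (orange) samples, with marker shape for the replicate number and a line at the group mean. Each gene's groups overlap, WT replicate 1 is the highest WT sample for all but Col5a2, and WT replicate 4 is the lowest WT sample for all 9.

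The intervals are wide. Except for Col24a1, each reached from a fold of 0.614 or less to one of 1.04 or more. The interval of Col24a1, not adjusted for the number of genes, reached from a fold of 0.457 to one of 0.993. The data thus do not settle the size of the difference for any of the 9 genes. With WT replicate 1 left out, 8 of the 9 were still lower and Col14a1 was not (edgeR logFC 0.040). With only the libraries numbered in the 1300s in the labels, which are WT replicates 1 and 2 and all Trpc1-/- samples, the logFC lay between -0.81 for Col5a3 and -0.41 for Col14a1. In those 5 samples 7 of the 9 genes were lower without overlap between groups, against 17.8% of all tested genes. At an unadjusted edgeR p under 0.05, 4 of the 9 had a lower level, against 8.38% of all tested genes. None passed adjustment there either, with edgeR adjusted p from 0.378 to 0.429. These 5 samples leave out WT replicate 4, the lowest WT sample for all 9 genes. They keep WT replicate 1, the highest WT sample for all but Col5a2. The 9 genes also varied together across samples, so these counts are not 9 separate results. The libraries numbered in the 1700s are WT replicates 3 and 4 alone, so they hold no comparison of genotypes.

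**Figure D3:**
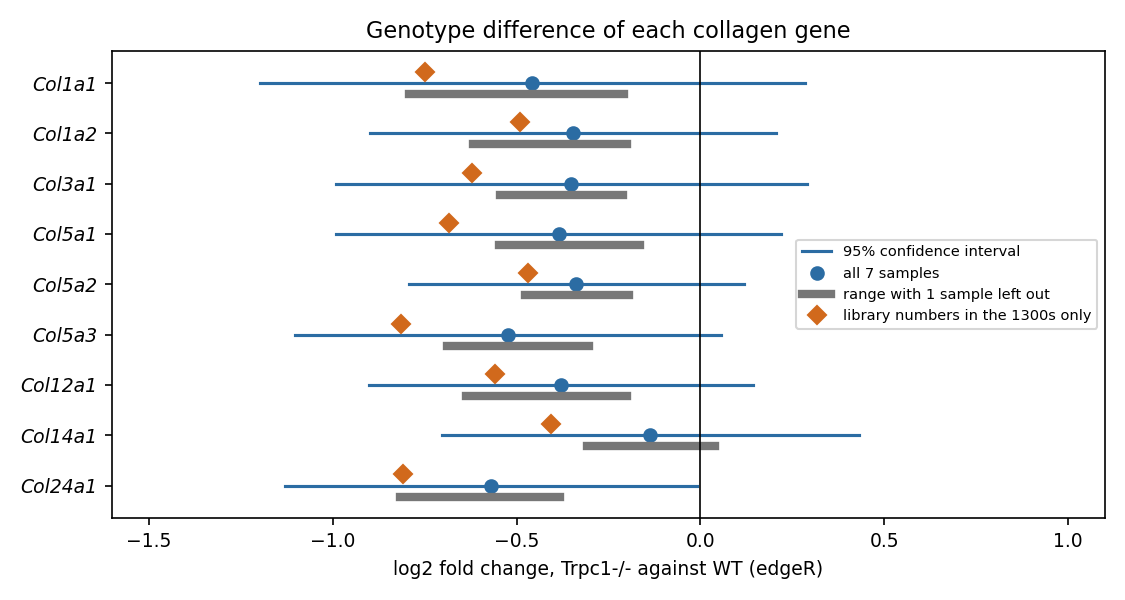
LogFC of each collagen gene (x axis, log2, Trpc1-/- against WT, edgeR) with all 7 samples (blue point, 95% confidence interval), its range with any 1 sample left out (grey bar), and its value in the 5 libraries numbered in the 1300s (orange diamond). The diamonds lie left of the blue points for all 9 genes, and only the interval of Col24a1 ends below 0.

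Levels were compared between genes per length, as CPM per kb of the longest coding transcript. Col1a2 had 1060 to 1924 CPM per kb and Col1a1 822 to 2153, and Col1a2 was above Col1a1 in 6 of 7 samples, WT replicate 1 being the exception. In all 7 samples the order below was Col1a1, Col3a1 (411 to 931 CPM per kb), Col5a2 (91.0 to 162), Col5a1 (33.8 to 78.4), Col12a1 (21.9 to 48.3), Col14a1 (15.1 to 33), Col5a3 (5.74 to 13.8) and Col24a1 (3.70 to 9.55). By CPM, type I collagen ranked among the most abundant transcripts of the tissue, Col1a1 between places 5 and 16 and Col1a2 between 5 and 14. Together the 9 genes took 2.81, 2.66, 2.38 and 1.79% of all counts in WT replicates 1 to 4 and 1.71, 2.31 and 1.36% in Trpc1-/- replicates 1 to 3. The spread within WT, as coefficient of variation, was smallest for Col1a2 (15.9%) and largest for Col1a1 (33.3%).

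Ratios within a sample were then compared for 7 pairs of genes that share a fibril or a trimer. They do not depend on the scaling between libraries. Each is a ratio of counts per length of the longest coding transcript, and so differs from the ratio of the CPM given above. None passed the test of a difference between the genotypes (exact permutation test over 35 assignments of samples, two-sided, smallest possible p 0.0286, adjusted p = 1 for all 7), and the groups overlapped in each. The ratio of Col1a1 to Col1a2, 1.12, 0.766, 0.686 and 0.811 in WT and 0.699, 0.835 and 0.820 in Trpc1-/- samples, is that of the 2 chains of type I collagen. The log2 of this ratio averaged -0.27 ± 0.30 over WT and -0.35 ± 0.14 over Trpc1-/- samples.

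The ratio that ranged most within a genotype was Col14a1 to Col1a1, at 0.0153, 0.0184, 0.0199 and 0.0142 in WT and 0.0320, 0.0135 and 0.0234 in Trpc1-/- samples. Trpc1-/- replicates 1 and 3 were above all WT samples and Trpc1-/- replicate 2 was below them, with a log2 difference between genotypes of 0.37 (exact permutation p = 0.343). The ratio of Col3a1 to Col1a1 also ranged widely, at 0.432, 0.578, 0.621 and 0.385 in WT and 0.793, 0.383 and 0.555 in Trpc1-/- samples (log2 difference 0.16, exact permutation p = 0.657). The ratio of the type V chains Col5a2 to Col5a1 had a log2 difference of 0.0078 (exact permutation p = 1), at 1.97, 2.88, 3.19 and 2.98 in WT and 2.66, 2.82 and 2.69 in Trpc1-/- samples. The remaining log2 differences were 0.12 for Col5a1 to Col1a1, 0.055 for Col12a1 to Col1a1 and -0.037 for Col5a2 to Col3a1. Without WT replicate 1 the log2 differences lay between -0.14 (Col5a2 to Col5a1) and 0.32 (Col14a1 to Col1a1), and that of Col1a1 to Col1a2 was 0.056.

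Across the 7 samples, log2 CPM of the 9 genes varied together. All 36 pairs had a positive Pearson's r, between 0.443 and 0.983 with a median of 0.856, and 26 pairs passed adjustment by r and 19 by Spearman's rho (exact permutation test over pairings, adjusted over the 36 pairs). Col5a1 and Col5a3 had the highest r, followed by Col12a1 with Col24a1 (0.972), Col1a1 with Col24a1 (0.961) and Col1a2 with Col12a1 (0.956). Col3a1 and Col14a1 were close to each other (0.933) and farther from type I collagen, with 0.479 for Col14a1 with Col1a1 and 0.443 with Col1a2. These pairs share their libraries and genotypes. Without WT replicate 1, 8 of the 36 pairs passed adjustment, and with the 2 samples farthest from the median of the first gene left out, r was over 0.5 in 32 of the 36 pairs.

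Outside the set, the 10 genes most like it by Pearson's r with the mean standardized level of the 9, over 7 samples, were Evc (0.995), Zbtb7c, Dag1, Hhipl1, Eml1, Nfe2l1, Col6a3, Slc7a2, Kctd3 and Spats2l (0.985). In all, 101 genes outside the set had an r over 0.95, so these 10 are the top of a larger group with similar r. Among them Col6a3, a chain of the beaded-filament collagen VI, was at 635 CPM in WT and 466 CPM in Trpc1-/- samples. By Spearman's rho 47 genes tied at a rho of 1, so the 10 most alike by rho were an arbitrary pick among the tied genes. That pick held 0 of the 10 genes named above, which does not show whether any of them were among the 47. Leaving out WT replicate 1, 7 of the 10 were again among the 10 most alike by Pearson's r.

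With all 7 samples, no marker of any cell type list was called by edgeR after adjustment (0% of all tested genes), and the counts by DESeq2 stand beside its 1.79% of all tested genes. Of all 16429 tested genes, 741 were higher and 902 (5.49%) lower at an unadjusted edgeR p under 0.05. All 15 erythroid markers had a higher mean in Trpc1-/- samples, 12 of them at an unadjusted p under 0.05. Those called by DESeq2 included Alas2, Hbb-bt, Rhag and Slc4a1. The erythroid score was 9.01 to 9.35 in WT and 9.56 to 9.82 in Trpc1-/- samples, without overlap. With this score in the edgeR model only 2 of the 9 collagen genes had a lower level in Trpc1-/- samples. Score and genotype do not overlap, so that model cannot tell their effects apart. The 16 chondrocyte markers were all lower (score 6.77 to 7.24 in WT, 6.27 to 7.03 in Trpc1-/- samples, 6 at an unadjusted p under 0.05, Chad called by DESeq2), as were 14 of 15 markers of osteoblasts and osteocytes (6.07 to 6.41 and 5.86 to 6.27, 2 at an unadjusted p under 0.05, Sost called by DESeq2). Of 14 fibroblast markers 13 were lower (5.63 to 6.02 and 5.58 to 5.65), 4 at an unadjusted p under 0.05, with Fbln1 and Smoc2 called by DESeq2. Without WT replicate 1, DESeq2 called 14 of 15 erythroid markers higher, beside 5.42% of all tested genes called. It called 8 chondrocyte, 6 osteoblast and osteocyte and 3 fibroblast markers lower. In the same setting edgeR called Mepe, Sost and Fbln1, beside 0.298% of all tested genes. The lowest remaining WT score was then 7.17 for chondrocytes and 6.33 for osteoblasts and osteocytes, each above all Trpc1-/- samples. WT replicate 1 had the lowest WT score in both lists, so leaving it out removed the overlap, and this is no separate result. Without it 22.7% of all tested genes did not overlap, in either direction, against 13.6% with all 7 samples. The part of these cell types in the collagen values was not tested.

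Among the 4 WT samples, the tendon and ligament score was highest in replicate 1 and lowest in replicate 4. Within WT the same held for 8 of the 9 collagens (all but Col5a2). The tendon and ligament score was 4.79, 4.32, 4.14 and 3.66 in WT replicates 1 to 4. It was 4.06, 4.07 and 3.98 in Trpc1-/- replicates 1 to 3, with 7 of 8 genes lower and Thbs4 and Fmod the most abundant. The score of pericytes and smooth muscle, with Rgs5 and Cspg4 the most abundant, had the same order in WT (4.98, 4.53, 4.40 and 4.10) and lay at 4.30 to 4.41 in Trpc1-/- samples, with 7 of 8 genes lower. Skeletal muscle markers, led by Myh4 and Acta1, were again highest in WT replicate 1 and lowest in WT replicate 4 (2.58 to 6.88), but 0 of 8 were lower in Trpc1-/- samples (5.03 to 6.68). Without WT replicate 1, 6 of 8 tendon markers and 6 of 8 markers of pericytes and smooth muscle were lower. DESeq2 then called 6 of the 8 skeletal muscle markers higher, beside 5.42% of all tested genes called. It also called Tnmd of the tendon list and Des of the pericyte list higher. Whether the share of these tissues in a dissection contributed to the collagen levels was not tested.

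The other marker lists overlapped between the groups. Of 8 endothelial markers, led by Pecam1 and Kdr, 7 were lower, and scores were 4.68 to 4.92 in WT and 4.64 to 4.68 in Trpc1-/- samples. All 10 neutrophil markers had a higher mean in Trpc1-/- samples (8.20 to 9.74 and 9.30 to 9.66), and 1 of 8 B lymphocyte markers, led by Ebf1 and Cd79b, was lower (4.74 to 5.23 and 5.16 to 5.42). Of 8 osteoclast markers, led by Mmp9 and Ctsk, 5 were lower (4.62 to 5.53 and 4.91 to 5.29). No gene of these 4 lists was called by edgeR after adjustment or by DESeq2, with or without WT replicate 1. Without that sample 7 of the 10 neutrophil markers had a lower mean in Trpc1-/- samples, so their direction rested on it.

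**Figure D4:**
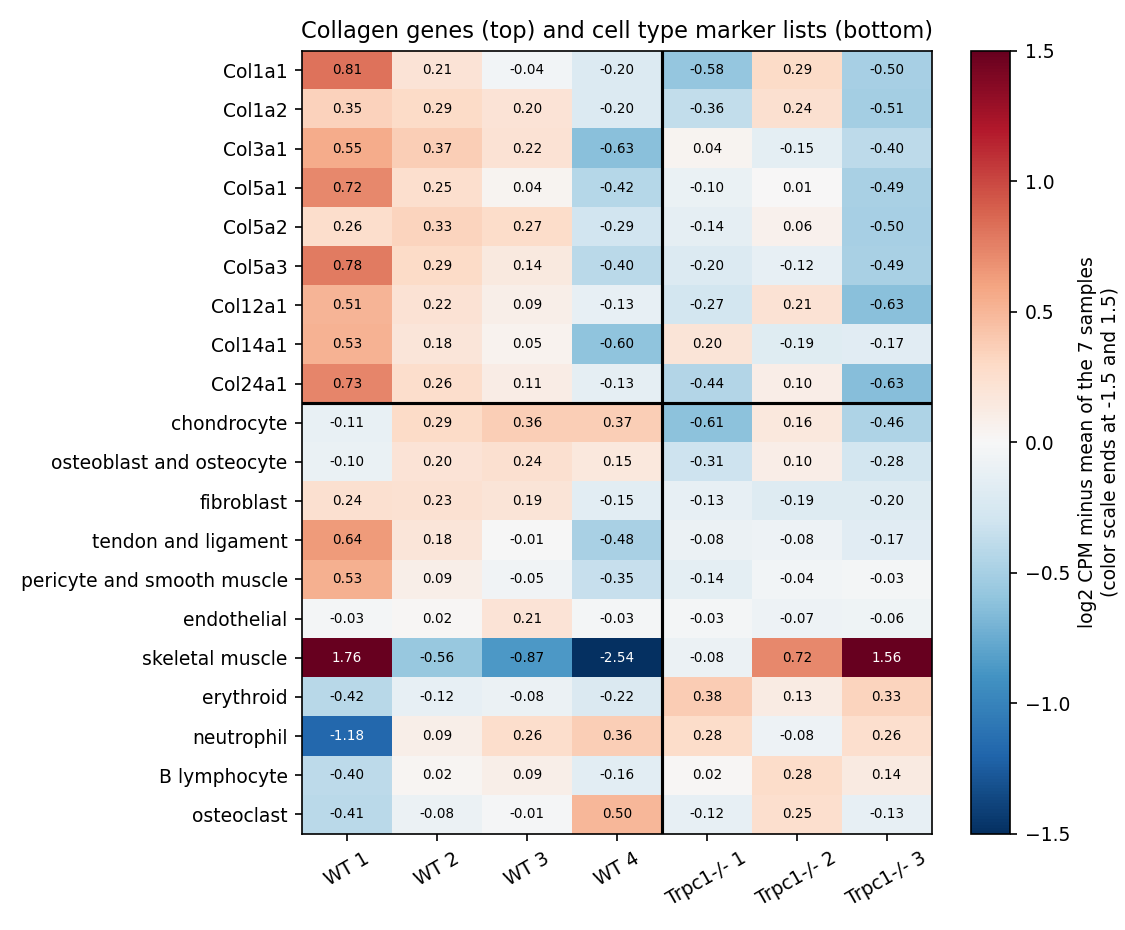
Log2 CPM of the 9 collagen genes (upper rows) and score of 11 marker lists (lower rows) in each sample, as the difference from the mean of the 7 samples (number and color). Red is above that mean and blue below it. WT replicate 1 is high and WT replicate 4 low in the collagens and in the tendon, pericyte and skeletal muscle lists, and the erythroid list is above its mean in all 3 Trpc1-/- samples.

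Genes that make, cut, link and bind these collagens were grouped by role. Over all tested genes, 5.49% were lower at an unadjusted edgeR p under 0.05, and DESeq2 called 1.79%. No list had a gene called by edgeR after adjustment, with or without WT replicate 1, and every list had a negative median logFC in both cases. Collagen crosslinking had the largest share of genes called by DESeq2, 4 of 7: Lox, the lysyl oxidase that starts crosslinking, at 160 ± 7.64 CPM in WT and 114 ± 12.8 CPM in Trpc1-/- samples (edgeR logFC -0.49, DESeq2 adjusted p = 0.000576), and its relatives Loxl2 (-0.63, DESeq2 adjusted p = 0.0203), Loxl3 (-0.47, DESeq2 adjusted p = 0.0408) and Loxl4 (-0.77, DESeq2 adjusted p = 0.0138). All 7 genes were lower, 5 of them at an unadjusted p under 0.05, with a median logFC of -0.47, and for each of the 4 called genes every Trpc1-/- sample lay below every WT sample. These genes were picked by the DESeq2 call in the same samples, so their lack of overlap is no separate result. Loxl1, the lysyl oxidase that was not called, overlapped between the groups. A lower level without overlap was found in 6.42% of all tested genes and in none of the collagens of the set. The difference between the lists was not tested. With WT replicate 1 left out, DESeq2 called these 4 genes again, beside 5.42% of all tested genes, and edgeR called none of the 7.

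Folding and hydroxylation followed, with 20 of 21 genes lower, a median logFC of -0.25, 6 genes at an unadjusted p under 0.05 and 3 called by DESeq2. These were P4ha2, a subunit of prolyl 4-hydroxylase (24.8 ± 2.43 CPM in WT and 17.1 ± 1.93 CPM in Trpc1-/- samples, DESeq2 adjusted p = 0.00712), P3h2, a prolyl 3-hydroxylase (18.5 ± 0.698 and 13.8 ± 1.47 CPM, DESeq2 adjusted p = 0.00627), and Colgalt2, a galactosyltransferase of collagen (36.4 ± 7.49 and 22.2 ± 4.07 CPM, DESeq2 adjusted p = 0.0218). In procollagen processing, 7 of 10 listed genes were tested and all 7 were lower (median logFC -0.33, 3 at an unadjusted p under 0.05, 0 called by either tool). They included Bmp1, which removes the C-propeptide, at 110 ± 16.9 and 80.0 ± 11 CPM (edgeR adjusted p = 0.420), and Pcolce2 and Adamts2, which assist that step and remove the N-propeptide.

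Of the 17 regulators of the fibril surface, 16 were lower (median logFC -0.29, 3 at an unadjusted p under 0.05), with Prelp, a leucine-rich proteoglycan, called by DESeq2 (202 ± 27.2 and 135 ± 26.9 CPM, DESeq2 adjusted p = 0.0411) and Emilin1 (logFC -0.32) and Comp (logFC -0.42) not called. Among 10 collagen receptors, 8 were lower (median logFC -0.15, 3 at an unadjusted p under 0.05), including Itga10, an integrin subunit of chondrocytes that passed in DESeq2 (53.7 ± 11.7 and 32.4 ± 6.74 CPM, DESeq2 adjusted p = 0.0328). Ddr1 and Itga1 were not called. Of 11 genes of collagen breakdown and uptake, 9 were lower (median logFC -0.19, 2 at an unadjusted p under 0.05), led by Fap, Mmp14 and Timp3, with 0 called by DESeq2. DESeq2 without WT replicate 1 called 4 genes of folding and hydroxylation, 2 of processing and 4 fibril regulators, all lower. It also called 2 receptors, both lower, and 0 genes of breakdown and uptake. Of all tested genes it called 5.42% in that setting.

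Collagens of the same classes outside the set had more negative medians than the 9. The 4 other fibrillar collagens, Col2a1, Col11a1, Col11a2 and Col27a1, were all lower (median logFC -0.51, 2 at an unadjusted p under 0.05), with Col27a1 at 164 ± 47.7 CPM in WT and 96.5 ± 30.2 CPM in Trpc1-/- samples (edgeR adjusted p = 0.449). Of 8 other fibril-associated collagens 6 were tested and all 6 were lower (median logFC -0.55, 2 at an unadjusted p under 0.05), led by Col9a3, Col9a2 and Col9a1, which accompany type II collagen. In this list Col16a1 (logFC -0.27) and Col22a1 (logFC -0.33) lay above the median of the 9 collagens. Neither tool called any of these after adjustment with all samples. Without WT replicate 1 DESeq2 called Col27a1, beside 5.42% of all tested genes. Their medians were then -0.47 for both lists and -0.26 for the 9, and the difference from the 9 collagens was not tested. Some genes stand in more than 1 list, such as Fmod, Comp and the cartilage collagens.

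**Figure D5:**
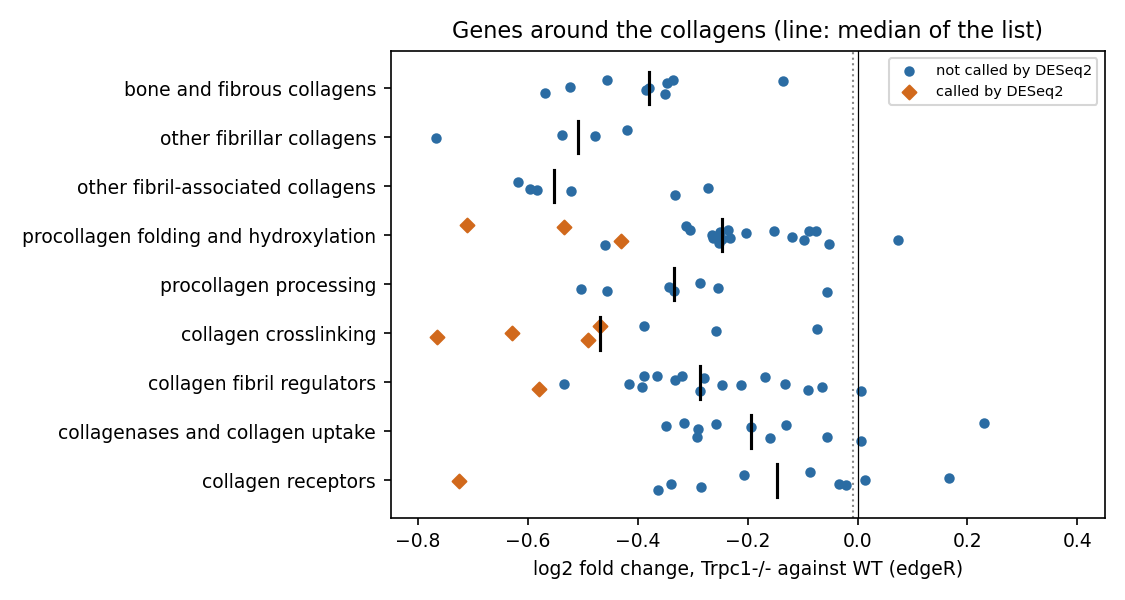
LogFC (x axis, log2, Trpc1-/- against WT, edgeR) of the 9 collagen genes and of the genes in 8 lists around them, 1 point per gene with a black line at each list's median and a dotted line at the median of all tested genes (-0.0088). Orange diamonds were called by DESeq2, and 4 of them are lysyl oxidases.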

How the data were processed

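The authors trimmed reads with cutadapt 2.5, aligned them to GRCm38 with HISAT2 2.1.0 and estimated coverage with StringTie 2.0.3, per the labels and the methods. The deposited values are estimated counts for each gene, derived from the coverage, already whole numbers and without normalization. Reads shared with other genes were thus assigned by the authors. Of all 75-base windows, 0.825% in Col5a1, 0.672% in Col3a1 and 0.0158% in Col1a2 also occur in another gene's transcripts, and 0 in the other 6.

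The filter on low counts asked for CPM above 1 in at least 2 samples. In R 4.3.3, counts were scaled by TMM, and edgeR 4.0.16 gave the quasi-likelihood test (genotype alone, Benjamini-Hochberg over 16429 genes, threshold 0.05). DESeq2 1.42.0 and limma 3.58.1 (voom) were alternatives, with other scaling, filters, covariates and samples left out. SE was taken from the F statistic, and intervals use edgeR's degrees of freedom. Log2 CPM has a prior count of 1. Replicates are pools, and p-values measure the spread between them. A level of 3 counts, 0.0254 to 0.0575 CPM, was taken as the floor and covers counting error only. The code was tested on simulated data.

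The 9 genes, lists and tests were chosen with earlier results of these data known. Named genes are the 9, Trpc1, the 10 most alike by Pearson's r, in each pathway list the 3 smallest edgeR p, in each marker list the 2 most abundant, and any listed gene called by edgeR or DESeq2. Col2a1 and the other genes of the short fibrillar list are named as its content. Genes named without WT replicate 1 beyond these, and Col16a1 and Col22a1, were chosen after their values were seen. A result that this rule would name is not reported here. Positions, lengths and sequences come from GENCODE M21 (GRCm38). Protein sequences were not used here.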

Additional observations from a re-analysis of the deposited data

Results flagged for a closer look

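Among the 4 WT samples, Col5a2 had 1 sample far from the others. WT replicates 1 to 3 stood at 1023, 1077 and 1033 CPM and WT replicate 4 at 698 CPM, and the gap between replicate 4 and its nearest neighbour made up 0.858 of the range of the group (Dixon's ratio). Chance alone gives such a ratio in about 1 in 20 groups, and this was 1 of 16 groups examined (the 9 genes and 7 ratios in WT). The Trpc1-/- samples, at 778, 894 and 603 CPM, were too few for this comparison.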

How the results depend on the processing

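Of the logFC values of the 9 genes under the alternatives, 213 kept their direction and side of the threshold, 9 turned and 3 passed the threshold. None of the 9 was called in the main fit, so the same side here means not called, and sizes still varied. With the erythroid score as covariate, 2 of the 9 were lower, and 7 turned: Col1a1 0.86, Col1a2 0.20, Col5a1 0.38, Col5a3 0.19, Col12a1 0.39, Col14a1 0.13 and Col24a1 0.40. Score and genotype do not overlap, so their effects cannot be told apart. With 1 sample left out, the logFC of Col14a1 ranged from -0.31 to 0.040, and without WT replicate 1 it was at 0.040 (edgeR) and 0.044 (DESeq2), and 8 pairs of the 36 were correlated. Likewise 0 to 5 of the 9 did not overlap. There were 5 without WT replicate 4, beside 20.5% of all tested genes, and 4 without Trpc1-/- replicate 2, beside 28.4%. These shares count either direction and were 13.6% with all 7 samples, whereas the 6.42% and 17.8% above count lower genes only. With 1 sample left out, DESeq2 called 0 to 1 of the 9. It called Col3a1 without WT replicate 4 (logFC -0.54, DESeq2 adjusted p = 0.0437, 1.72% of all tested genes called) and Col1a2 without Trpc1-/- replicate 2 (logFC -0.60, DESeq2 adjusted p = 0.0461, 2.23% called). Over all alternatives and tools the adjusted p of Col3a1 ranged from 0.0200 to 0.977 and that of Col1a2 from 0.0461 to 0.989. In the libraries numbered in the 1300s 7 of the 9 did not overlap. Replicate numbers do not pair the samples, since same-numbered samples are different animals and their deviations correlated at -0.35, -0.205 and -0.044. With the replicate block, which leaves out WT replicate 4, edgeR called 0 of the 9. There 5 did not overlap between groups, beside 20.5% of all tested genes (either direction). DESeq2 with that block called 1, Col3a1 (logFC -0.55, DESeq2 adjusted p = 0.0200), of 53 genes in all (0.323%). The cause of these changes was not tested. Over all genes, edgeR called 0 and DESeq2 294. Without WT replicate 1 edgeR called 49, and 0 without any other sample, and DESeq2 called 890 without WT replicate 1, 62 without replicate 2, 134 without replicate 3 and 283 without replicate 4, and 79, 367 and 37 without Trpc1-/- replicates 1, 2 and 3.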
